A study of Homo sapiens with 6 samples.

Results

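The genes described here build the mitochondrial network, tie it to the endoplasmic reticulum and move calcium between these compartments. The set holds 41 genes, chosen by name because C19orf12, the gene silenced in the study, encodes a protein of mitochondria and the endoplasmic reticulum. All 41 were found among the 20824 genes listed in at least 1 file, and all 41 passed the filter on low counts. The cells were A549, an established human line from a lung adenocarcinoma, and their RNA was sequenced in 6 libraries. One group of 3 libraries carried a scrambled control shRNA (sh-scramble, named by the labels as the wild type control), and the other 3 libraries carried an shRNA against C19orf12. The knockdown libraries share 1 shRNA by their titles, so an effect of that hairpin on other targets cannot be told apart from loss of C19orf12. Nothing in the labels says that the libraries came from separate cultures, so p-values here measure the spread between these libraries.

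Mitochondria are remodelled by membrane GTPases that fuse and divide them. The mitofusins join outer membranes and OPA1 joins inner membranes, while DNM1L is recruited by outer membrane adaptors to divide them. At contact sites with the endoplasmic reticulum, inositol trisphosphate (IP3) receptors release calcium next to the porins of the outer membrane, the voltage-dependent anion channels. The uniporter, whose pore is MCU, carries that calcium into the matrix. SERCA pumps refill the endoplasmic reticulum, and STIM sensors open ORAI channels of the plasma membrane when it is depleted. Tethers and lipid transfer proteins such as the VPS13 family and PDZD8 hold the membranes together, and the MICOS complex and inner membrane proteases shape the cristae.

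C19orf12 itself was read at 42.5, 41.1 and 63.3 CPM in scramble replicates 1 to 3 and at 24.2, 26.4 and 25.2 CPM in the knockdown libraries. CPM values are counts scaled to a common library total by TMM. Its log2 fold change of knockdown over scramble was -0.95 (SE 0.20, edgeR adjusted p = 0.015). It no longer passed when any 1 knockdown library was left out (adjusted p = 0.0908, 0.0755 and 0.0879), and without scramble replicate 3 the log2 fold change was -0.73 (adjusted p = 3.17e-08). The epithelial markers KRT8 and KRT18 lay between 1151 and 5578 CPM and the A549-type enzyme genes AKR1B10, AKR1C1, ALDH3A1 and GPX2 between 161 and 7057 CPM in all 6 libraries, while KRT19 and EPCAM were at most 2.70 CPM. The leukocyte gene PTPRC was at most 1.60 CPM, the endothelial genes CDH5 and VWF at most 0.20 and 0.10 CPM, and the fibroblast genes COL1A2, DCN and LUM at most 0.60 CPM, although COL1A1 was read at 23.5 to 47.5, LYZ at 11.4 to 16.9 and PECAM1 at 2.71 to 3.9 CPM. KRT8, KRT18 and KRT19 were higher and ALDH3A1 and COL1A1 lower in knockdown libraries (edgeR adjusted p = 0.000246, 0.00135, 0.00563, 0.0442 and 0.0191), all 5 also without scramble replicate 3 (largest adjusted p = 1.57e-06), and the part of these changes in the results on the 41 genes was not tested.

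One library, scramble replicate 3, stood apart in all genes as well as in the 41. Against scramble replicates 1 and 2 its chi-square per gene was 75.2 and 74.1, where scramble replicates 1 and 2 differed by 1.61 and the knockdown libraries among themselves by 1.67 to 1.96. The knockdown libraries differed from scramble replicates 1 and 2 by 48.9 to 49.3, less than scramble replicate 3 did. From scramble replicate 3 the knockdown libraries differed by 98.5 to 102. That library was the lowest or the highest for most of the 41 genes. Scramble replicate 3 was the lowest of the 6 libraries for 16 of the 41 genes and the highest for 22, against 34.9% and 38.7% of all 14812 genes tested. Fold changes and calls of the 41 genes are therefore given with it and without it. Replicates varied by 18.9% (the common coefficient of variation) over the 6 libraries, by 2.97% without scramble replicate 3, and by 9.82% after a correction of each library for transcript GC content and length.

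With all 6 libraries 4 of the 41 genes passed the test (edgeR's quasi-likelihood test, Benjamini-Hochberg adjusted p under 0.05), or 9.76%, where 11.5% of all genes tested did. ITPR1 and VDAC3 rose, where 5.89% of all genes did, and ATP2A3 and MCUB fell, where 5.64% did. With upper-quartile scaling 1 rose and 2 fell, because VDAC3 no longer passed (adjusted p = 0.0762). The median log2 fold change of the 41 was 0.08, against 0.02 over all genes tested. Of the 41 genes 39 changed by less than 1 on the log2 scale and 35 by less than 0.5, where 92.8% and 75.0% of all genes did. In 17 of the 41 genes, or 41.5%, the groups did not overlap, 8 with knockdown above and 9 with knockdown below, where 37% of all genes tested did not overlap (18.4% above, 18.6% below). Without scramble replicate 3, 27 of the 41, or 65.9%, passed, 16 higher and 11 lower, where 49.5% of all 15029 genes tested passed (25.7% higher, 23.8% lower). The groups then did not overlap in 31 of the 41, or 75.6%, 17 with knockdown above and 14 with knockdown below, where 64.3% of all genes did not (32.7% above, 31.6% below). The 41 genes had mean levels of 9.19 to 1579 CPM, and the shares of all genes were not matched for level. After the GC and length correction 13 of the 41, or 31.7%, passed, 6 higher and 7 lower, where 34.3% of 14231 genes passed (15.4% higher, 19% lower). RNA per library does not tell fewer cells of a kind from less RNA per cell.

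**Figure D1:**
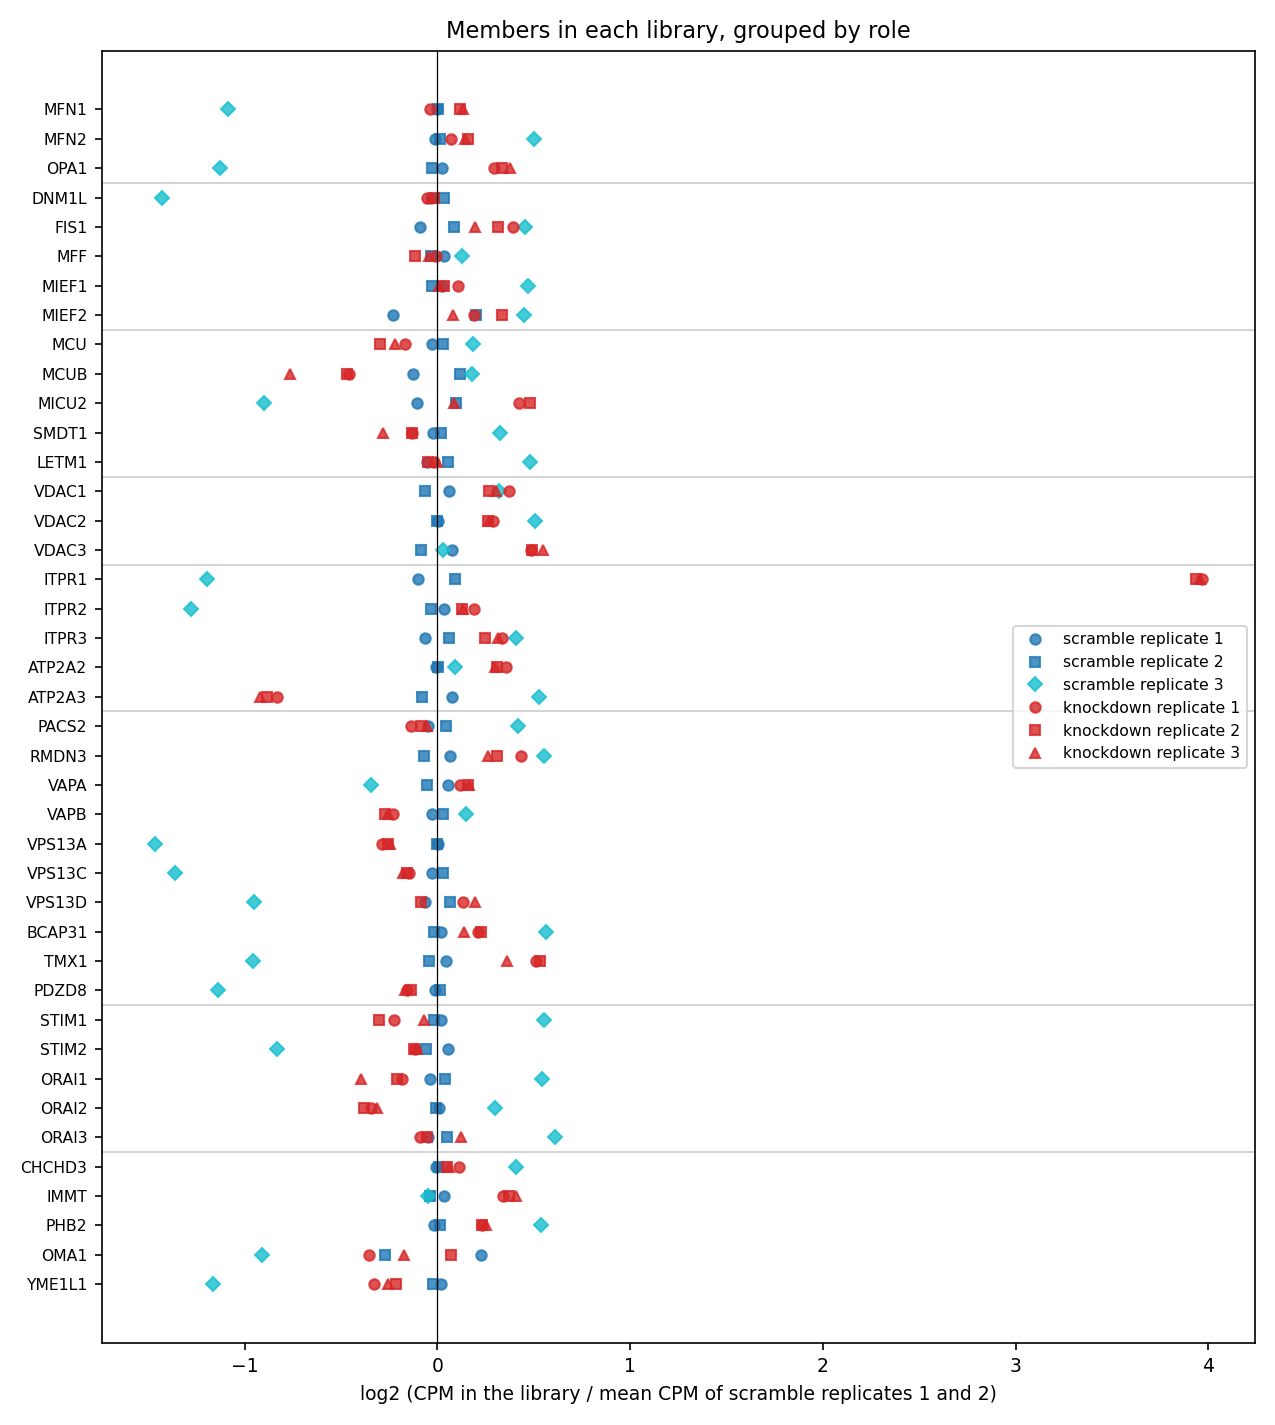
Level of each of the 41 genes in each of the 6 libraries, as log2 of its CPM over the mean CPM of scramble replicates 1 and 2 (horizontal axis), with genes in rows grouped by role and 1 symbol per library. ITPR1 lies near 4 in all 3 knockdown libraries, most other knockdown points lie within 0.5 of 0, and scramble replicate 3 (diamonds) is the lowest library for 16 genes and the highest for 22.

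The largest change among the 41 genes was in the IP3 receptors, the calcium release channels of the endoplasmic reticulum. ITPR1, the type 1 receptor, was read at 31.9, 36.4 and 14.9 CPM in scramble replicates 1 to 3 and at 535, 522 and 529.9 CPM in the knockdown libraries. The lowest knockdown library was far above the highest scramble library. Its mean rose 19.1-fold, from 27.7 ± 11.3 to 529 ± 6.2 CPM (SD, n = 3 each), a log2 fold change of 4.25 (SE 0.31, edgeR adjusted p = 5.44e-05). This was the 29th highest log2 fold change of the 14812 genes tested. Without scramble replicate 3 the log2 fold change was 3.95 (adjusted p = 7.86e-24), and the call held under every alternative tried, with log2 fold changes of 3.95 to 4.49.

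The other IP3 receptors did not pass with all 6 libraries. ITPR2 was read at 32.7, 31.2 and 13.2 CPM in scramble and 36.4, 34.8 and 35.0 CPM in knockdown libraries, with knockdown above scramble in every pair of libraries. The log2 fold change of ITPR2 was 0.46 (adjusted p = 0.386) and 0.15 (adjusted p = 0.101) without scramble replicate 3. ITPR3 was read at 191, 208 and 265 CPM in scramble and 252, 237 and 248 CPM in knockdown libraries, so the groups overlapped through scramble replicate 3 alone. For ITPR3 the log2 fold change was 0.15 (adjusted p = 0.631), and 0.30 (adjusted p = 6.78e-06) without that library.

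Per transcript length, ITPR1 held the largest share of the family in knockdown libraries and ITPR3 in scramble libraries. FPKM (fragments scaled for transcript length and sequencing depth) allow levels of different genes to be compared. They were used as deposited, without the TMM scaling of the CPM. In FPKM, ITPR1 stood at 3.24, 3.75 and 1.42 in scramble and 51.0, 49.9 and 50.8 in knockdown libraries. It made up 11.7%, 12.4% and 4.67% of the summed FPKM of the 3 receptors in scramble, and 63.2%, 64.1% and 63.4% in knockdown libraries. The share of ITPR3 was 78.6%, 79.1% and 92.0% in scramble, and 33.3%, 32.5% and 33.2% in knockdown libraries. The level of ITPR3 itself was 24.5 FPKM on average in scramble and 26.2 FPKM in knockdown libraries. ITPR2 held 3.29% to 9.66% of the sum in every library. The sum itself went from 29.4 ± 1.54 to 79.5 ± 1.52 FPKM (SD, n = 3 each), 2.70 times the scramble mean, and 2.75 times that of scramble replicates 1 and 2.

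The RefSeq promoter windows of ITPR1 and ITPR3 are shown because ITPR1 held the largest share in knockdown libraries and ITPR3 in scramble libraries. Each is the 250 bases before the annotated start in GRCh38.p14, on the + strand, 5′ to 3′, at chr3:4493098-4493347 for ITPR1 and chr6:33621072-33621321 for ITPR3. Capitals mark the matches to the motifs searched for on both strands, TATAA (the TATA box), CCAAT (the CCAAT box), GGGCGG (a GC box) and CACGTG (an E-box).
ITPR1: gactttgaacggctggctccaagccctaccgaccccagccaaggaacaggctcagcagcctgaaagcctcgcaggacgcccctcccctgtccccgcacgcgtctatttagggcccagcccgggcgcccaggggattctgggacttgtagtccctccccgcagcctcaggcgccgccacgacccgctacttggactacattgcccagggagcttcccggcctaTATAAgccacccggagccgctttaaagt
ITPR3: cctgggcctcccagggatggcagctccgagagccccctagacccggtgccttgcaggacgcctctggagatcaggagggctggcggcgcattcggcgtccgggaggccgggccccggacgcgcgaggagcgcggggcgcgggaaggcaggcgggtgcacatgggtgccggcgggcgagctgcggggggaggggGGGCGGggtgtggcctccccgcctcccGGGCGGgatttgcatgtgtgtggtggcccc
The ITPR1 window has a GC content of 64.8% and 1 TATAA match, which starts 28 bases before the start, and no match to the other motifs. The ITPR3 window has a GC content of 76.8%, with GGGCGG at 57 and 30 bases before the start and no match to the other motifs. Of all 35116 windows of this length in the table, 18.9% hold TATAA, 32.0% CCAAT, 42.6% GGGCGG and 6.34% CACGTG. Of the 16724 windows of genes tested here, 11.6% hold TATAA, 32.8% CCAAT, 61.5% GGGCGG and 8.0% CACGTG. Windows were found for 35 of the 41 genes, and 6 were not in the table (ATP2A3, ITPR2, LETM1, ORAI1, VDAC3 and YME1L1). A match in a window is a description of letters, and the files hold no binding data.

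**Figure D2:**
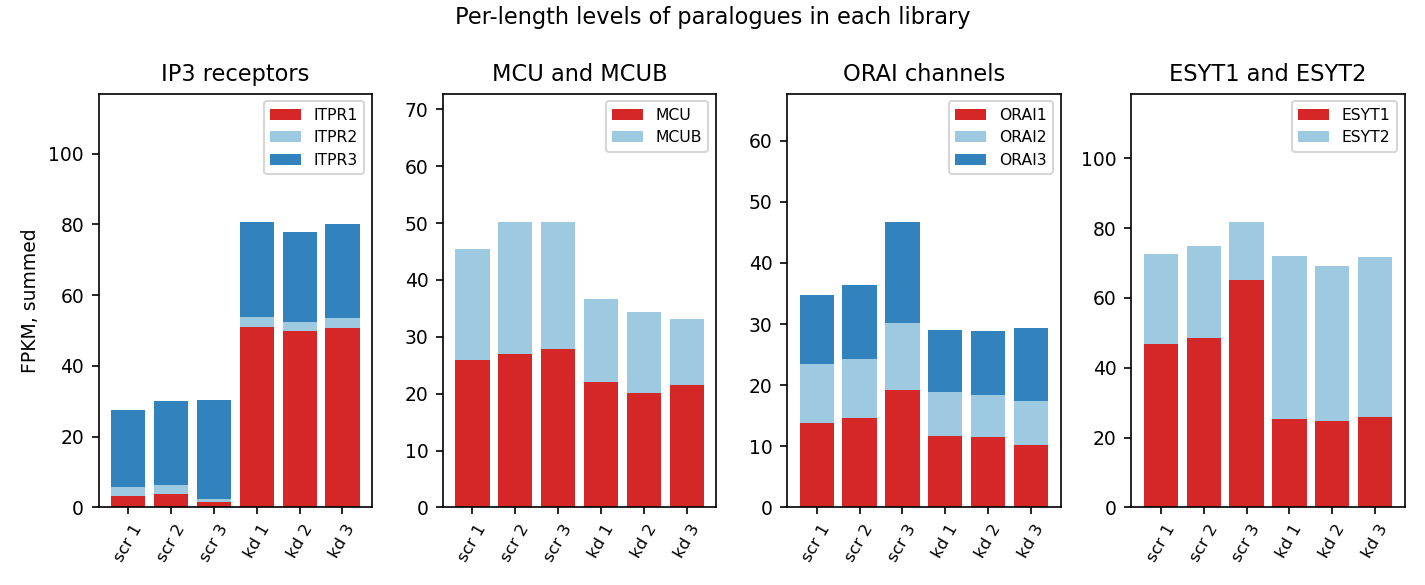
Summed FPKM (vertical axis) of 4 groups of related genes in each library, stacked by gene, for scramble (scr) and knockdown (kd) replicates 1 to 3. ITPR1 grows from at most 12.4% to at least 63.2% of the IP3 receptors, the sum of MCU and MCUB and that of the ORAI channels are lower in every knockdown library than in any scramble library, and ESYT2 replaces ESYT1 as the larger share.

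The SERCA pumps, which return calcium to the endoplasmic reticulum, moved in different directions. ATP2A3 (SERCA3) was read at 22.2, 19.9 and 30.3 CPM in scramble and at 11.8, 11.4 and 11.1 CPM in knockdown libraries, without overlap. Its mean fell from 24.1 ± 5.48 to 11.4 ± 0.342 CPM (SD, n = 3 each), to 47.4% of the scramble mean, with a log2 fold change of -1.08 (SE 0.20, edgeR adjusted p = 0.00764). Without scramble replicate 3 the log2 fold change was -0.88 (adjusted p = 4.6e-07). Leaving out knockdown replicate 2 (-1.08, adjusted p = 0.0505) or 3 (-1.05, adjusted p = 0.0551) took it just past the threshold.

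ATP2A2 (SERCA2), the housekeeping pump, was the most abundant of the 41 genes by CPM. It was read at 1385, 1395 and 1481 CPM in scramble and at 1782, 1722 and 1708 CPM in knockdown libraries. The groups did not overlap, but the log2 fold change of 0.29 did not pass with all 6 libraries (SE 0.12, adjusted p = 0.168), and it did without scramble replicate 3 (0.32, adjusted p = 1.96e-09). Of the summed FPKM of ATP2A1, ATP2A2 and ATP2A3, ATP2A2 held 97.3% to 97.9% in scramble and 98.6% in each knockdown library. The share of ATP2A3 went from 2.07% ± 0.317 to 0.811% ± 0.0259 (SD, n = 3 each).

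**Figure D3:**
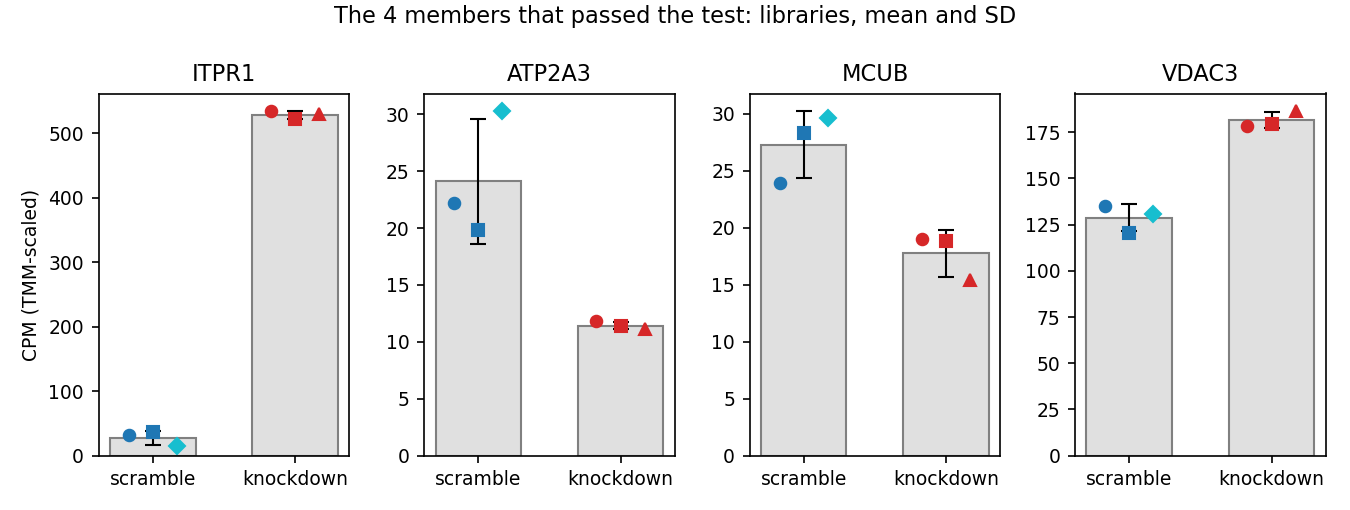
CPM (vertical axis, from 0, a separate scale for each gene) of ITPR1, ATP2A3, MCUB and VDAC3 in scramble and knockdown libraries; points are libraries, bars the mean and error bars the SD of 3 libraries. The groups do not overlap for any of the 4 genes.

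The voltage-dependent anion channels, the pores through which ions and metabolites cross the outer membrane, were higher in knockdown libraries than in scramble replicates 1 and 2, as 32.7% of all genes tested were. VDAC3 was read at 135, 121 and 131 CPM in scramble and at 179, 179.6 and 187 CPM in knockdown libraries, without overlap and with scramble replicate 3 between the other scramble libraries. It rose by 0.50 on the log2 scale (SE 0.14, edgeR adjusted p = 0.0488), and by 0.51 without scramble replicate 3 (adjusted p = 1.3e-08). The call with all 6 libraries was close to the threshold: it was also lost with no filter on low counts (adjusted p = 0.0727) and without any 1 of the 5 other libraries (adjusted p = 0.107 to 0.246).

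VDAC1 was read at 246, 226 and 295 CPM in scramble and 306, 285 and 291 CPM in knockdown libraries. VDAC2, the most abundant of the 3, was read at 346, 345 and 490.5 CPM in scramble and 423, 414 and 416 CPM in knockdown libraries. For both, scramble replicate 3 was the high scramble library and the groups overlapped through it. Their log2 fold changes were 0.20 (adjusted p = 0.467) and 0.08 (adjusted p = 0.813), and 0.32 (adjusted p = 2.35e-06) and 0.27 (adjusted p = 6.72e-07) without that library. After the GC and length correction VDAC1 stood at 0.15 (adjusted p = 0.232), VDAC2 turned to -0.12 (adjusted p = 0.706) and VDAC3 passed at 0.33 (adjusted p = 0.0469). The VDAC genes have processed pseudogenes in the human genome, and how reads shared with these were split is not given in the sources used here.

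Of the genes of the uniporter and of inner membrane exchange, MCUB alone passed with all 6 libraries, where 11.5% of all genes tested did. MCUB, a paralogue of the pore subunit that lowers uniporter transport, was read at 24.0, 28.3 and 29.6 CPM in scramble and at 19, 18.9 and 15.4 CPM in knockdown libraries, without overlap. It fell by 0.62 on the log2 scale (SE 0.17, edgeR adjusted p = 0.0477), and by 0.56 without scramble replicate 3 (adjusted p = 0.000118). It did not pass without any 1 of the 5 other libraries (adjusted p = 0.0575 to 0.258), with no filter on low counts (0.0611) and by limma-voom (0.0506).

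MCU, the pore subunit, was read at 74.4, 77.3 and 86.2 CPM in scramble and at 67.5, 61.7 and 65.2 CPM in knockdown libraries. The groups did not overlap, with a log2 fold change of -0.29 (adjusted p = 0.261) and of -0.23 without scramble replicate 3 (adjusted p = 0.00237). The summed FPKM of MCU and MCUB went from 48.6 ± 2.74 to 34.8 ± 1.71 (SD, n = 3 each), 0.715 times the scramble mean. These FPKM are not TMM-scaled. In TMM-scaled CPM the knockdown mean was 81.7% of the scramble mean for MCU and 65.0% for MCUB. The ratio of MCU to MCUB in FPKM was 1.34, 1.17 and 1.25 in scramble and 1.53, 1.40 and 1.82 in knockdown libraries. The lowest knockdown ratio lay above the highest scramble ratio.

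The other genes of this group did not pass with all 6 libraries. SMDT1 (EMRE), which links the pore to its calcium sensors, was read at 18.1, 18.7 and 23.0 CPM in scramble and at 16.8, 16.8 and 15.1 CPM in knockdown libraries, without overlap (-0.30, adjusted p = 0.317). It did not pass without scramble replicate 3 either (-0.18, adjusted p = 0.153), but did after the GC and length correction (-0.30, adjusted p = 0.0355). MICU2, a calcium-sensing gatekeeper of the pore, was read at 18.7, 21.4 and 10.7 CPM in scramble and at 26.9, 28.0 and 21.3 CPM in knockdown libraries, with knockdown replicate 3 just below scramble replicate 2. MICU2 had a log2 fold change of 0.58 (adjusted p = 0.189), 0.34 without scramble replicate 3 (adjusted p = 0.0131) and 0.40 after the GC and length correction (adjusted p = 0.0366). LETM1, a cation exchanger of the inner membrane, had a log2 fold change of -0.20 (adjusted p = 0.542), and -0.02 without scramble replicate 3 (adjusted p = 0.77).

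In store-operated entry, 3 of the 5 genes had every knockdown library below every scramble library, as 18.6% of all genes tested did. None of the 5 passed with all 6 libraries by edgeR, DESeq2 or limma-voom (2 had an unadjusted edgeR p under 0.05). By edgeR 11.5% of all genes tested passed. ORAI2, a pore subunit of the plasma membrane channel, was read at 102, 100.5 and 124 CPM in scramble and at 79.8, 77.7 and 81.4 CPM in knockdown libraries. The log2 fold change of ORAI2 was -0.45 (SE 0.15, edgeR adjusted p = 0.0953), and -0.35 without scramble replicate 3 (adjusted p = 6.24e-06). ORAI1, the canonical pore subunit, was read at 19.7, 20.8 and 29.4 CPM in scramble and at 17.8, 17.5 and 15.4 CPM in knockdown libraries (-0.46, adjusted p = 0.177; without scramble replicate 3 -0.26, adjusted p = 0.0366). STIM1, the calcium sensor of the endoplasmic reticulum, was read at 85.8, 83.6 and 124 CPM in scramble and at 72.6, 68.7 and 80.7 CPM in knockdown libraries.

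STIM1 had a log2 fold change of -0.40 (adjusted p = 0.225), and -0.20 without scramble replicate 3 (adjusted p = 0.0114). After the GC and length correction these 3 genes passed, at -0.32 for ORAI1, -0.49 for ORAI2 and -0.34 for STIM1 (adjusted p = 0.0235, 0.00587 and 0.0303). With that correction 34.3% of 14231 genes passed (15.4% higher, 19% lower). ORAI3 (-0.24, adjusted p = 0.538) was at -0.0047 without scramble replicate 3. STIM2, the second sensor, was read at 24.1, 22.2 and 13.0 CPM in scramble and at 21.3, 21.3 and 21.5 CPM in knockdown libraries, and its log2 fold change of 0.11 turned to -0.12 without scramble replicate 3 (adjusted p = 0.301). The summed FPKM of the 3 ORAI genes was 34.8, 36.4 and 46.7 in scramble and 29.1, 28.9 and 29.4 in knockdown libraries.

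None of the 10 contact site genes passed by edgeR with all 6 libraries, where 11.5% of all genes tested did. TMX1 alone had an unadjusted edgeR p under 0.05, DESeq2 called 1 of the 10 and limma-voom 0. Without scramble replicate 3, 8 of them passed, 4 higher and 4 lower, where 49.5% of all genes tested did (25.7% higher, 23.8% lower). TMX1, a thiol oxidoreductase of the endoplasmic reticulum enriched at mitochondrial contacts, was read at 68.0, 64.0 and 34.0 CPM in scramble and at 93.9, 95.3 and 84.7 CPM in knockdown libraries, without overlap. Its log2 fold change was 0.72 (SE 0.25, edgeR adjusted p = 0.0974), and 0.47 without scramble replicate 3 (adjusted p = 1.1e-06), and DESeq2 called it with all 6 libraries (adjusted p = 0.0439).

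The paired anchors VAPA and VAPB, proteins of the endoplasmic reticulum that bind lipid transfer proteins and RMDN3 (PTPIP51) on mitochondria, lay on opposite sides. VAPA was read at 172, 159 and 130.2 CPM in scramble and at 179, 185 and 185 CPM in knockdown libraries (0.25, adjusted p = 0.359). VAPB was read at 106, 111 and 120.0 CPM in scramble and at 92.5, 89.7 and 90.8 CPM in knockdown libraries (-0.30, adjusted p = 0.22). Neither gene's groups overlapped, and without scramble replicate 3 both passed, VAPA at 0.15 (adjusted p = 0.00899) and VAPB at -0.25 (adjusted p = 0.000185). After the GC and length correction VAPA turned to -0.02 and VAPB passed at -0.52 (adjusted p = 0.0493). The share of VAPA in the summed FPKM of the pair was 65.1%, 62.5% and 55.6% in scramble and 69.1%, 70.5% and 70.2% in knockdown libraries. The sum of the pair was 39.5, 38.4 and 32.6 FPKM in scramble and 36.4, 36.8 and 37.2 FPKM in knockdown libraries. Its mean was 36.8 FPKM in both groups, with SDs of 3.73 and 0.40 (n = 3 each). The knockdown mean was 0.945 times that of scramble replicates 1 and 2.

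The bridge-like lipid transfer genes VPS13A and VPS13C and the tether PDZD8 changed sign with scramble replicate 3. VPS13A was read at 122, 122 and 44.1 CPM in scramble and at 100.02, 102 and 103 CPM in knockdown libraries. VPS13C was read at 181, 189 and 72.0 CPM in scramble and at 167, 166 and 163 CPM in knockdown libraries, and PDZD8 at 234, 238 and 107 CPM against 211, 215 and 210.1 CPM. In all 3 genes the knockdown libraries lay below scramble replicates 1 and 2 and above scramble replicate 3. Their log2 fold changes were 0.08, 0.17 and 0.13 with all 6 libraries (adjusted p = 0.913, 0.795 and 0.811) and -0.26, -0.16 and -0.15 without it (adjusted p = 6.43e-05, 0.00272 and 0.00198). VPS13D, a VPS13 protein needed for mitochondrial shape, did not pass either way (0.34, adjusted p = 0.456; without that library 0.09, adjusted p = 0.319).

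RMDN3, BCAP31 and PACS2 did not pass with all 6 libraries. RMDN3 was read at 20.3, 18.5 and 28.5 CPM in scramble and at 26.2, 24.1 and 23.2 CPM in knockdown libraries (0.13, adjusted p = 0.748; without scramble replicate 3 0.34, adjusted p = 0.00488). BCAP31, a chaperone of the endoplasmic reticulum that binds FIS1, was read at 181, 177 and 265 CPM in scramble and at 207, 209 and 197 CPM in knockdown libraries. For BCAP31 the log2 fold change of -0.02 (adjusted p = 0.962) turned to 0.19 (adjusted p = 0.000647) without scramble replicate 3. PACS2, a sorting protein that maintains the contacts, had its knockdown libraries (78.2 to 82.7 CPM) below its scramble libraries (83.2 to 115 CPM) and did not pass (-0.24, adjusted p = 0.419; without scramble replicate 3 -0.09, adjusted p = 0.176).

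None of the 3 fusion genes passed with all 6 libraries by edgeR, DESeq2 or limma-voom (1, OPA1, had an unadjusted edgeR p under 0.05). By edgeR 11.5% of all genes tested passed. OPA1, the inner membrane fusion GTPase, was read at 66.0, 63.7 and 29.6 CPM in scramble and at 79.5, 81.8 and 84.3 CPM in knockdown libraries, without overlap. Its log2 fold change was 0.62 (SE 0.27, edgeR adjusted p = 0.191), 0.34 without scramble replicate 3 (adjusted p = 3.12e-05) and 0.43 after the GC and length correction (adjusted p = 0.00169). MFN1 was read at 38.5, 38.5 and 18.1 CPM in scramble and at 37.5, 41.7 and 42.2 CPM in knockdown libraries (0.35, adjusted p = 0.476; without scramble replicate 3 0.07, adjusted p = 0.434). MFN2 was read at 95.8, 97.4 and 137 CPM in scramble and at 101, 108 and 107 CPM in knockdown libraries, and its -0.06 (adjusted p = 0.868) turned to 0.12 (adjusted p = 0.0458). Scramble replicate 3 was thus the lowest library for MFN1 and the highest for MFN2. The summed FPKM of both mitofusins was 32.9 ± 0.347 in scramble and 33.0 ± 1.44 in knockdown libraries (SD, n = 3 each).

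The 5 fission genes overlapped between the groups with all 6 libraries, and 0 passed by edgeR, DESeq2 or limma-voom (0 at an unadjusted edgeR p under 0.05). Of all genes tested, 37% did not overlap and 11.5% passed by edgeR. DNM1L (DRP1), the GTPase that constricts mitochondria, was read at 89.9, 94.2 and 34.2 CPM in scramble and at 88.7, 90.9 and 90.1 CPM in knockdown libraries. Its log2 fold change of 0.30 (adjusted p = 0.624) was -0.03 (adjusted p = 0.61) without scramble replicate 3. Of its adaptors, FIS1 was read at 30.5, 34.4 and 44.5 CPM in scramble and at 42.6, 40.3 and 37.1 CPM in knockdown libraries, and it alone passed without that library (0.30, adjusted p = 0.00309; with all 6 libraries 0.13, adjusted p = 0.716). MFF, MIEF1 and MIEF2, the other adaptors, had log2 fold changes of -0.10, -0.12 and 0.04 with all 6 libraries (adjusted p = 0.725, 0.726 and 0.936) and of -0.05, 0.05 and 0.20 without it (adjusted p = 0.329, 0.444 and 0.304).

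Of the 5 genes of cristae and inner membrane quality control, none passed with all 6 libraries by edgeR, DESeq2 or limma-voom (1, IMMT, had an unadjusted edgeR p under 0.05). By edgeR 11.5% of all genes tested passed. IMMT (mitofilin), the core of the MICOS complex at crista junctions, was read at 161, 153 and 152 CPM in scramble and at 199, 203 and 208 CPM in knockdown libraries, without overlap. Its log2 fold change was 0.39 (SE 0.13, edgeR adjusted p = 0.102), 0.37 without scramble replicate 3 (adjusted p = 1.99e-07) and 0.31 after the GC and length correction (adjusted p = 0.00539). CHCHD3, a second MICOS subunit, had -0.08 (adjusted p = 0.82), and 0.07 without scramble replicate 3 (adjusted p = 0.214). PHB2, a scaffold of the inner membrane, was read at 259, 265 and 380.4 CPM in scramble and at 307, 308 and 312 CPM in knockdown libraries (0.04, adjusted p = 0.931; without scramble replicate 3 0.24, adjusted p = 1.09e-05).

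YME1L1, a protease that cleaves OPA1, was read at 251, 244 and 110.4 CPM in scramble and at 197, 213 and 207 CPM in knockdown libraries. The value of 0.03 on the log2 scale (adjusted p = 0.966) turned to -0.27 (adjusted p = 1.34e-05) without scramble replicate 3. OMA1, the stress-activated protease that cleaves OPA1, was read at 6.68 to 14.7 CPM in scramble and 9.80 to 13.2 CPM in knockdown libraries (0.10, adjusted p = 0.862; without scramble replicate 3 -0.14, adjusted p = 0.47).

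**Figure D4:**
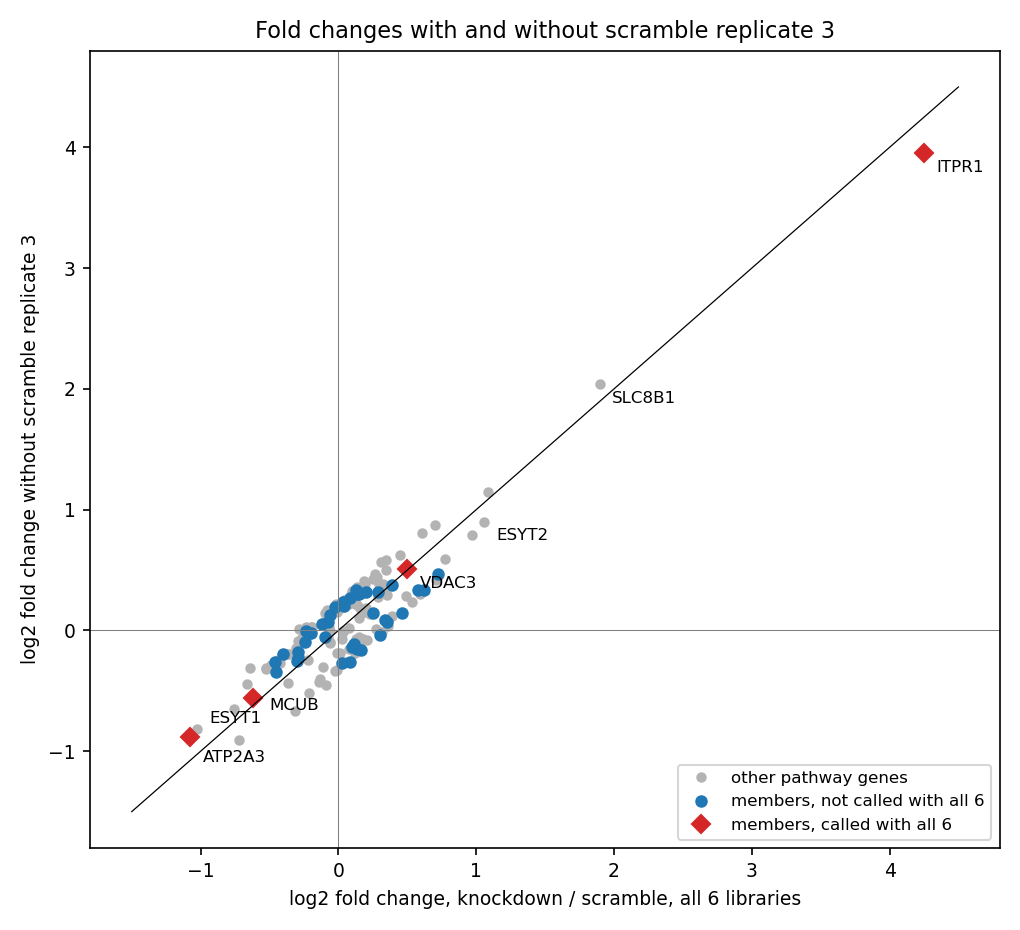
Log2 fold change of knockdown over scramble with all 6 libraries (horizontal axis) and without scramble replicate 3 (vertical axis) for the 41 genes and the 114 other pathway genes tested; the line marks equal values. ITPR1 (4.25 and 3.95) and SLC8B1 (1.90 and 2.04) keep a large change both ways, and genes above 0 on 1 axis and below 0 on the other are those that turn with that library. The axes share the other 5 libraries.

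Scramble replicate 3 moved with GC content across the 41 genes. Spearman's rho between a gene's transcript GC content and its log2 ratio of scramble replicate 3 to the mean of scramble replicates 1 and 2 was 0.81 over the 41 genes and 0.74 over 14231 genes (0.5 CPM added to each value). These points share the 3 libraries. Of the 17 genes under 45% GC, 12 were lower in scramble replicate 3, with a median of -0.95, and of the 24 others 20 were higher, with a median of 0.42. Over all genes these medians were -0.81 and 0.39. OPA1 (38.4% GC), DNM1L (41.6%) and VPS13A (37.5%) stood on the low side, and MFN2 (54.0%), BCAP31 (59.7%) and PHB2 (57.3%) on the high side. ITPR1, at 47.3% GC, was low in that library, with a log2 ratio of -1.17.

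**Figure D5:**
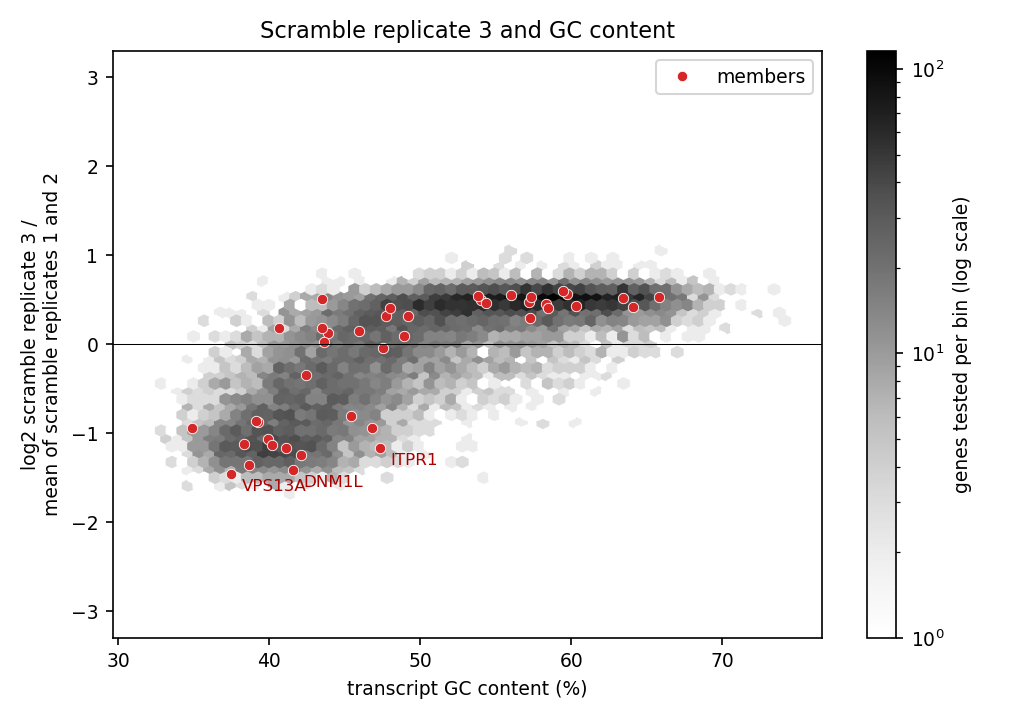
Transcript GC content in percent (horizontal axis) and log2 ratio of scramble replicate 3 to the mean of scramble replicates 1 and 2 (vertical axis); shading counts tested genes per bin on a log scale and red points are the 41 genes. Genes under 45% GC lie mostly below 0 and the others mostly above.

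Beyond the 41 genes, 124 genes of the same pathways were listed as partners, of which 114 were tested. Of these 9, or 7.89%, passed with all 6 libraries, 6 higher and 3 lower, against the 11.5% of all genes (5.89% higher, 5.64% lower). The same shares stand beside the count of each partner list below. In 39, or 34.2%, the groups did not overlap, against the 37% of all genes. Without scramble replicate 3, 76 of 116 passed, 48 higher and 28 lower, where 49.5% of all genes tested passed (25.7% higher, 23.8% lower). Among the partners tested the largest log2 fold change was that of SLC8B1 (NCLX), the exchanger that takes calcium out of the mitochondrial matrix in return for sodium. It was read at 12.7, 13.3 and 17.1 CPM in scramble and at 53.2, 55.6 and 51.9 CPM in knockdown libraries, and rose by 1.90 on the log2 scale (SE 0.18, edgeR adjusted p = 0.000197), or 2.04 without scramble replicate 3 (adjusted p = 4.92e-15). It was the 1 called gene of 12 tested uniporter and matrix calcium partners, among which GHITM, an inner membrane calcium transporter, had 0.30 (adjusted p = 0.198; without scramble replicate 3 0.34, adjusted p = 1.67e-07).

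Of 26 contact site partners tested, 1 rose and 1 fell, both extended synaptotagmins, which tether the endoplasmic reticulum to the plasma membrane. ESYT2 was read at 149, 152 and 104 CPM in scramble and at 288, 274 and 281 CPM in knockdown libraries, and rose by 1.06 on the log2 scale (edgeR adjusted p = 0.00482; without scramble replicate 3 0.90, adjusted p = 3.47e-14). ESYT1 was read at 193, 199 and 288 CPM in scramble and at 111, 109 and 114 CPM in knockdown libraries, with a log2 fold change of -1.03 (adjusted p = 0.00726; without scramble replicate 3 -0.82, adjusted p = 6.3e-13). ESYT1 lost its call without knockdown replicate 1 (adjusted p = 0.05) or 2 (adjusted p = 0.0545). The share of ESYT1 in the summed FPKM of the pair was 64.5%, 64.7% and 79.5% in scramble and 35.2%, 35.8% and 36.2% in knockdown libraries. HSPA9, the matrix chaperone that links VDAC1 to IP3 receptors, did not pass (-0.01, adjusted p = 0.977), and without scramble replicate 3 stood at -0.19 (adjusted p = 2.67e-05).

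Of 18 endoplasmic reticulum and Golgi calcium partners tested, 2 rose, where 5.89% of all genes tested did. ATP2A1 (SERCA1), the pump of fast muscle, was low throughout, at 2.79, 2.69 and 3.10 CPM in scramble and 6.0, 5.69 and 6.56 CPM in knockdown libraries (1.09, adjusted p = 0.00729; without scramble replicate 3 1.15, adjusted p = 9.12e-05). CALU, a calcium-binding protein of the secretory pathway, went from 183 to 291 CPM in scramble to 408 to 428 CPM in knockdown libraries (0.77, adjusted p = 0.0263; without scramble replicate 3 0.60, adjusted p = 4.03e-11). Of 7 store-operated and plasma membrane partners tested, ATP2B4, a calcium pump of the plasma membrane, rose, from 28.0 to 45.9 CPM in scramble to 69.8 to 78.6 CPM in knockdown libraries (0.97, adjusted p = 0.0141; without scramble replicate 3 0.79, adjusted p = 2.64e-09). CALU and ATP2B4 lost their calls without any 1 knockdown library (adjusted p = 0.103 to 0.123 and 0.0598 to 0.0813), and CALU also without scramble replicate 2 (0.0558). TMBIM6, a calcium leak protein of the endoplasmic reticulum (-0.21, adjusted p = 0.511), and SEPTIN2, a septin cytoskeleton gene (0.39, adjusted p = 0.378), did not pass with all 6 libraries. Without scramble replicate 3 TMBIM6 stood at -0.0092 (adjusted p = 0.841) and SEPTIN2 passed at 0.12 (adjusted p = 0.00387).

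Of 19 fusion and fission partners tested, 2 fell, where 5.64% of all genes tested did. PLD6 (MitoPLD), a phospholipase of the outer membrane, was read at 13.4, 12.2 and 15.6 CPM in scramble and at 8.60, 7.79 and 7.95 CPM in knockdown libraries (-0.76, adjusted p = 0.021; without scramble replicate 3 -0.65, adjusted p = 0.000276). SPIRE1, an actin nucleator, was read at 78.1, 78.3 and 50.5 CPM in scramble and at 42.5, 42.6 and 40.1 CPM in knockdown libraries (-0.72, adjusted p = 0.045; without scramble replicate 3 -0.91, adjusted p = 2.28e-11). PLD6 lost its call without any 1 knockdown library (adjusted p = 0.0933 to 0.122), and SPIRE1 without any 1 library other than scramble replicate 3 (0.122 to 0.199) and by limma-voom (0.0605). The formin INF2, which builds actin at division sites, did not pass with all 6 libraries (0.34, adjusted p = 0.236) and did without scramble replicate 3 (0.50, adjusted p = 1.08e-08).

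None of 8 mitochondrial transport partners passed with all 6 libraries by edgeR, DESeq2 or limma-voom (1 had an unadjusted edgeR p under 0.05). The motor KIF5B stood at -0.0082 (adjusted p = 0.991) and at -0.32 without scramble replicate 3 (adjusted p = 1.65e-06). Of 24 cristae partners 1 rose, where 5.89% of all genes tested did. PHB1, the partner of PHB2 in the prohibitin ring, was read at 125, 123 and 170.1 CPM in scramble and at 227, 223 and 229 CPM in knockdown libraries (0.70, adjusted p = 0.0261; without scramble replicate 3 0.87, adjusted p = 1.09e-13). Its call was lost without any 1 library other than scramble replicate 3 (adjusted p = 0.0971 to 0.133). CHCHD2, an intermembrane space protein, did not pass (0.11, adjusted p = 0.766; without scramble replicate 3 0.32, adjusted p = 5.1e-07).

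The mean transcript length that the files give per gene and library moves when the transcripts of a gene are counted in other proportions. Of the 41 genes 28 could be tested and 0 passed (limma, Benjamini-Hochberg), where 18 of 7518 genes, or 0.239%, did, and 1 of the 28 had an unadjusted p under 0.05 (no other tool was run). That gene was VPS13C, at 13529, 13496 and 13523 bases in scramble and 13489, 13468 and 13469 bases in knockdown libraries (adjusted p = 0.448). YME1L1 and ORAI2 came next (adjusted p = 0.647 and 0.649). Without scramble replicate 3, 0 of the 28 passed and 0 had an unadjusted p under 0.05 (limma, smallest adjusted p = 0.605).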

How the data were processed

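The 6 libraries (3 scramble, 3 knockdown) each have 1 deposited file with values per gene. The deposited values are expected counts (estimated by RSEM, so fractions occur), FPKM that the authors scaled for length and depth, and the mean length of a gene's transcripts. BWA, Bowtie2, RSEM and hg19 are named in the submitters' processing notes; the sources used here give neither their roles and versions nor the strand setting, so reads of overlapping or antisense genes may be included. Library totals were 10229890 to 10647587 estimated counts, and 18286 to 18582 genes were listed. A gene missing from a file was set to 0.

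Entrez IDs were matched to symbols for 20727 of 20824 genes. Counts were rounded and tested with edgeR 4.0.16 in R 4.3.3 (filterByExpr at its minimum of 10 counts and total of 15, TMM, glmQLFit, glmQLFTest, no covariate, Benjamini-Hochberg over 14812 genes, threshold 0.05). Log2 transcript length was tested with limma 3.58.1. The SE comes from the fold change and its F statistic.

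Members, lists and rules were chosen with earlier results of these data known. Named are all 41 genes and C19orf12, of each partner list up to 3 called genes with the smallest p and the uncalled gene with the highest mean CPM, and for length the 3 genes with the smallest p.

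Alternatives were RLE and upper-quartile scaling, no filter, a floor of 1 CPM in 3 or more libraries, the replicate block, leaving out each library, DESeq2 1.42.0, limma-voom without and with quality weights, and offsets from a spline (5 degrees of freedom) on GC content and length per library. Recovery of known changes was tested on simulated data. Python 3.11.15, pandas 2.3.3, numpy 2.4.6, scipy 1.17.1 and matplotlib 3.10.9 were used.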

Additional observations from a re-analysis of the deposited data

How the results depend on the processing

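Genes called numbered 1708, but 7327 with library quality weights and 4887 with the GC and length correction, and ran from 729 to 7439 with each library left out. Of the 41 genes, 4 with all libraries, 2 passed with no filter, 24 with quality weights, 13 with the GC and length correction, and 1 to 27 with each library left out, the highest without scramble replicate 3. Of the partners, 9 with all libraries, 69 passed with quality weights, 42 with the correction and 4 to 76 with each library left out. Genes with a changed transcript length numbered 18, but 7 at a mean of at least 5 CPM, 2 with the replicate block and 2 to 13 with each library left out. Replicate numbers did not pair the samples (correlations of deviations -0.017, -0.032 and -0.022), and the replicate block gave 1654 genes, 3 of the 41 and 9 partners; MCUB and VDAC3 lost their calls (adjusted p = 0.0863 and 0.146) and TMX1 gained one (0.0326), while among the partners SPIRE1 lost its call (0.051) and 1 other gained one.

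Of 615 values of the 41 genes under 15 alternatives 507 kept direction and side of the threshold. With the direction kept, 45 gained a call and 18 lost one. A further 45 changed sign, all for genes not called with all 6 libraries, and were counted so whether or not they passed. Without scramble replicate 3, MFN2, VPS13A, VPS13C, BCAP31, PDZD8 and YME1L1 changed sign and passed. With quality weights log2 fold changes turned to 0.12 for MFN2, -0.02 for DNM1L, 0.05 for MIEF1, -0.25 for VPS13A, -0.14 for VPS13C, 0.19 for BCAP31, -0.14 for PDZD8, -0.11 for STIM2, 0.07 for CHCHD3, -0.13 for OMA1 and -0.26 for YME1L1. With the GC and length correction they turned to -0.12 for VDAC2, -0.02 for VAPA, -0.12 for VPS13A, -0.09 for VPS13C, 0.10 for BCAP31, -0.07 for PDZD8, -0.02 for STIM2, -0.07 for OMA1 and -0.14 for YME1L1. With the replicate block and with limma-voom BCAP31 turned to 0.0042 and 0.0043, KIF5B to 0.09 and 0.10 and HSPA9 to 0.01 in both. With upper-quartile scaling PHB2 turned to -0.0024 and YME1L1 to -0.00023.

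With each library left out, values ran from -0.17 to 0.12 for MFN2, -0.03 to 0.53 for DNM1L, -0.22 to 0.05 for MIEF1, -0.14 to 0.20 for MIEF2, -0.01 to 0.27 for VDAC2, -0.0028 to 0.34 for RMDN3, -0.26 to 0.28 for VPS13A, -0.16 to 0.38 for VPS13C, -0.13 to 0.19 for BCAP31, -0.15 to 0.30 for PDZD8, -0.12 to 0.27 for STIM2, -0.16 to 0.07 for CHCHD3, -0.07 to 0.24 for PHB2, -0.14 to 0.40 for OMA1, -0.27 to 0.21 for YME1L1, -0.32 to 0.19 for KIF5B and -0.19 to 0.09 for HSPA9. The cause was not tested. The counts without scramble replicate 3 come from fewer samples, and those after the correction from fewer genes.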

Other observations

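On chromosome 3, the genes near ITPR1 tested and named here had smaller log2 fold changes than it did. SUMF1, which encodes the sulfatase-modifying enzyme of the endoplasmic reticulum, was read at 23.8, 23.8 and 32.8 CPM in scramble and at 38.7, 40.6 and 45.1 CPM in knockdown libraries, without overlap (log2 fold change 0.63, edgeR adjusted p = 0.0571; without scramble replicate 3 0.80, adjusted p = 3.29e-08). SETMAR and BHLHE40 had log2 fold changes of 0.26 and -0.11 (adjusted p = 0.413 and 0.735), and of 0.20 and 0.04 without scramble replicate 3 (adjusted p = 0.24 and 0.333). The divergent transcript ITPR1-DT, at 0.557, 0.0928 and 0.194 CPM in scramble and 1.00, 0.899 and 0.993 CPM in knockdown libraries, was below the filter with all 6 libraries. Its log2 fold change was 1.53 without scramble replicate 3 (adjusted p = 0.0416), where it was tested. EGOT, a noncoding RNA within ITPR1, was at most 0.46 CPM and was not tested. These genes were chosen after the values of ITPR1 were seen.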
